A study of Mus musculus with 6 samples.

Results

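The Wnt pathway genes of the neonatal mouse retina were examined as 5 groups by role: the secreted Wnt ligands, their receptors and co-receptors, the secreted inhibitors, the cytoplasmic transducers around beta-catenin, and the nuclear Tcf/Lef factors. Members were chosen by gene symbol, with earlier results of these data known. They were every gene whose symbol begins with Wnt, Fzd, Sfrp, Dkk, Dvl or Axin and a number, or with Tcf7. Added to these were Lrp5, Lrp6, Ror1, Ror2, Ryk, Frzb, Wif1, Ctnnb1, Apc, Gsk3b and Lef1. The array held 54 such genes, read by 85 probe sets, among the 12393 genes that it named with a single symbol. There were 19 ligands, 14 receptors, 10 secreted inhibitors, 8 cytoplasmic transducers and 3 nuclear factors. The samples were retinas dissected at postnatal day 4 (P4) from 3 wildtype and 3 Nhlh2 knockout mice, all on a mixed C57/129 background, with 1 array for each mouse. The mice formed 3 littermate pairs of 1 wildtype and 1 knockout animal, and the replicate number names the pair. Nhlh2 encodes a neuronal basic helix-loop-helix transcription factor. How its allele was disrupted was not given in the sources used here. No probe set was paired with Nhlh2, so the genotype labels could not be checked against the signal of that gene.

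Wnt proteins are secreted, lipid-modified signals that bind Frizzled receptors together with a co-receptor. In the beta-catenin branch, Frizzled and Lrp5 or Lrp6 recruit Dishevelled and Axin, which releases beta-catenin from the destruction complex of Axin, Apc and Gsk3b, and beta-catenin then enters the nucleus and joins Tcf/Lef factors. Other branches run through Ryk, Ror1 or Ror2 to cell polarity and calcium. In the eye, Wnt signals are known for their part in patterning the ciliary margin, in retinal vascular growth through Fzd4, and in axon guidance.

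Signals are Affymetrix MAS 5.0 values, which summarise the probe pairs of a probe set on a linear scale without a unit. The deposited values had not been brought to a common level, since their medians per array ran from 51.4 to 95.6 on 5 arrays and were 9.0 in knockout 2. Each array was therefore multiplied by a single factor that set its trimmed mean to 500, and every signal below is such a scaled signal. Knockout 2 stood apart from the other arrays. The ratio of 3' to 5' Actb control probe sets was 274 in it, against 1.38 to 1.56 in the other 5 arrays, and its Spearman correlation with any other array over all probe sets was at most 0.670, against 0.947 to 0.975 among the others. Results are therefore given without knockout 2, and its values are shown beside them. Markers of the labelled tissue were present. The 6 photoreceptor precursor markers and the 10 progenitor and Müller glia markers measured were each above the array median in all 3 wildtype arrays. So were 6 of the 8 pigment epithelium and ciliary markers measured. Wildtype 1 also carried lens transcripts, with a summed signal over 15 lens genes of 23234, against 399 to 589 in wildtype 2, wildtype 3, knockout 1 and knockout 3. In whole retina, fewer cells of a type and less RNA per cell cannot be told apart.

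The first question was which parts of the pathway were expressed in the P4 retina. A signal above the median of its own array was taken as the mark of expression, the rule that the study's methods use where no detection call is given, and a gene was represented by its probe set with the higher mean signal. By this rule 10 of the 54 Wnt genes (18.5%) were above the median in all 3 wildtype arrays, 8 were above it in 1 or 2 arrays and 36 in none. Over all genes, 6358 of 12393 (51.3%) were above the median in all 3. By role, none of the 19 ligands passed, against 3 of 14 receptors, 2 of 10 secreted inhibitors, 5 of 8 cytoplasmic transducers and none of the 3 nuclear factors. A probe set's signal also depends on how well its probes hybridise, so a signal under the median does not show that a transcript is missing, and signals of different genes are not ranked here.

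**Figure D1:**
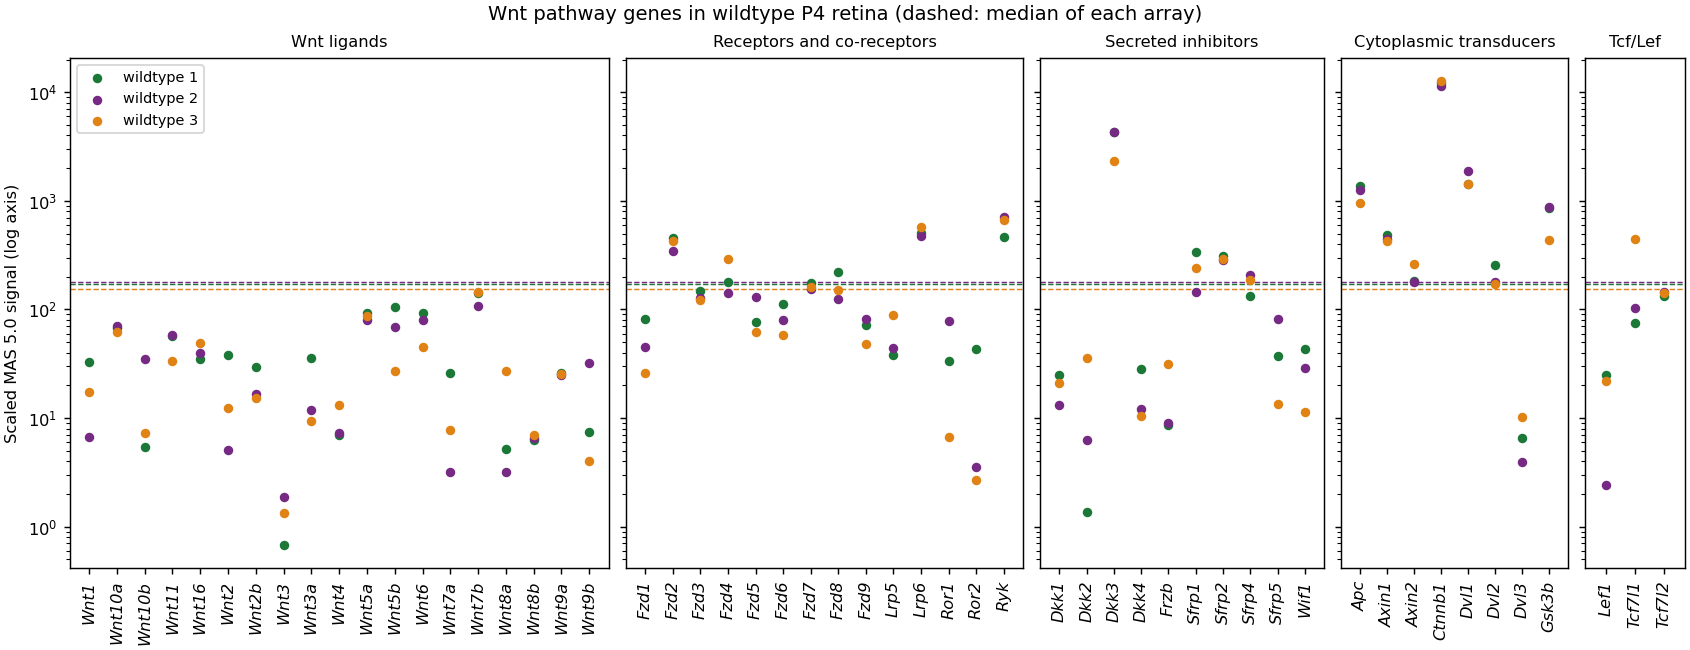
Scaled MAS 5.0 signal (vertical axis, log scale, no unit) of the leading probe set of each of the 54 Wnt genes (horizontal axis, grouped by role), with 1 point for each of the 3 wildtype arrays and a dashed line at the median of each array. All 19 ligands lie under the median of every array, while 5 of the 8 cytoplasmic transducers lie above it in all 3.

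The ligands were under the array median in every wildtype array and also in knockout 1 and knockout 3. Their median signal was 32.8, 25.2 and 17.2 in wildtype 1, 2 and 3. As a measure of background, 16 genes of liver, pancreas and muscle, which the retina should not express, had signals of at most 75.8, 71.2 and 63.2 in the same arrays. By their leading probe sets, Wnt7b and Wnt5a were the ligands above every one of these reference genes in all 3 wildtype arrays. Wnt7b, a ligand of the beta-catenin branch, had signals of 142, 108 and 145 in wildtype and of 158, 267 and 126 in knockout 1, 2 and 3. Leaving aside knockout 2, the groups overlapped and every value was under its array's median. The other Wnt7b probe set was within the range of the reference genes, with 17.9, 13.8 and 17.2 in wildtype. Wnt5a, a ligand best known for signalling without beta-catenin, had signals of 91.9, 79.4 and 87.9 in wildtype and 50.5, 87.6 and 65.9 in knockout. Knockout 1 and knockout 3 were both under all 3 wildtype arrays, and the probe set was too dim to enter the test between genotypes. Of 62 such dim Wnt probe sets, 6 had this order (Wnt5a, Wnt6, Wnt8b, Wnt16, Fzd7 and Fzd9), against 8.99% of all dim probe sets, and 3 had the opposite order (Fzd3, Lef1 and a second Fzd7 probe set), against 8.64%. The other Wnt5a probe set did not show this order, with 34.4, 58.5 and 29.8 in wildtype and 33.3, 70.1 and 45.3 in knockout.

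The ligands Wnt5b, Wnt6 and Wnt10a were above every reference gene in some wildtype arrays or in none. Wnt5b, a close relative of Wnt5a, had 104, 69.2 and 26.9 in wildtype and 85.8, 514 and 84.8 in knockout. Wnt6 varied, with 93.7, 79.4 and 44.9 in wildtype and 29.0, 240 and 2.65 in knockout 1, 2 and 3. Wnt10a was steadier, at 67.9, 69.7 and 62.4 in wildtype and 62.8, 185 and 101 in knockout. The remaining ligands, among them Wnt1, Wnt3a and Wnt4, lay between 0.679 and 57.6 in the wildtype arrays, a range in which the replicate arrays of a gene often differed several-fold. In knockout 2 the reference genes themselves reached 403 and 6 ligands exceeded the array median, so the ligand values of that array are not interpreted.

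Among the receptors, Fzd2, Lrp6 and Ryk were above the median in all 3 wildtype arrays. Fzd2, a Frizzled receptor, had 459, 342 and 426 in wildtype (mean 409 ± 60.3, SD, n = 3) and 349, 721 and 549 in knockout. Lrp6, the co-receptor that carries the Wnt signal to Axin, had 502, 472 and 575 in wildtype (mean 516 ± 53.2, SD, n = 3) and 419, 105 and 598 in knockout. Ryk, a kinase-dead receptor of Wnt ligands, had 469, 707 and 672 in wildtype (mean 616 ± 129, SD, n = 3) and 493, 378 and 645 in knockout. Knockout 1 and knockout 3 lay on either side of the wildtype range for Lrp6 and within it for Ryk. For Fzd2, knockout 1 lay within the range and knockout 3 above it. The genotypes thus overlapped in each of the 3 genes.

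Fzd4, Fzd7 and Fzd8 were near the median by their leading probe sets and passed it in some arrays. Fzd4, the receptor of Norrin and of retinal vessels, had 179, 143 and 294 in wildtype and 195, 113 and 223 in knockout. The second Fzd4 probe set was within the range of the reference genes, with 27.2, 7.46 and 16.4 in wildtype. Fzd7 had 174, 153 and 160 in wildtype and 128, 25.3 and 151 in knockout. The second Fzd7 probe set was also within that range, with 3.39, 3.36 and 4.30 in wildtype. Fzd8 had 221, 125 and 152 in wildtype and 157, 11.7 and 141 in knockout. Fzd3, a receptor that also serves axon growth and planar polarity, was under the median in wildtype at 147, 129 and 122. This leading probe set was above every reference gene, though not every other Fzd3 probe set was. Fzd5, a Frizzled gene of the early eye field, had 77.0, 130 and 62.4 in wildtype and 171, 39.0 and 95.6 in knockout. Fzd1, Fzd6, Fzd9, Lrp5, Ror1 and Ror2 stayed under the median in every wildtype array, with signals from 2.69 to 113. Lrp5, the co-receptor related to Lrp6, had 38.2, 44.4 and 88.7 in wildtype. The 2 genes that work with Fzd4 and Lrp5 in vessel growth, Ndp, which encodes Norrin, and Tspan12, were under the median in all 6 arrays. Endothelial cells, in which Fzd4 acts, were represented by 2 of 10 markers above the median in all wildtype arrays, Kdr and Cldn5.

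Among the secreted inhibitors, Dkk3 and Sfrp2 were above the median in all 3 wildtype arrays. Dkk3, a Dickkopf family member that does not act on Lrp6 as Dkk1 does, had 4326, 4320 and 2310 in wildtype (mean 3652 ± 1162, SD, n = 3) and 4625, 775 and 2696 in knockout. The low values were those of wildtype 3 and knockout 3, the littermates of pair 3, and of knockout 2. A second Dkk3 probe set gave 3205, 2709 and 2831 in wildtype and 2874, 760 and 2764 in knockout, with no such step in pair 3. Dkk3 was also the one gene among ligands, receptors, secreted inhibitors and nuclear factors above the 75th percentile of all 3 wildtype arrays. Sfrp2, a secreted Frizzled-related protein that binds Wnt ligands, was close to constant in wildtype at 308, 287 and 291 (mean 296 ± 11.4, SD, n = 3) and had 288, 245 and 480 in knockout. Knockout 3 alone was higher.

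Sfrp1 and Sfrp4, of the same family, were above the median in 2 of the 3 wildtype arrays. Sfrp1 had 342, 144 and 241 in wildtype and 118, 150 and 208 in knockout. The highest value was in wildtype 1, the array with lens transcripts, and in each of the 4 Sfrp1 probe sets wildtype 1 was the highest of the 5 arrays, by 1.84- to 5.13-fold over the mean of the other 4. Of the 15 lens genes measured, 14 were also highest in wildtype 1, and Cryaa was 5810 there against 3.23 to 6.77 in the other 4. Of the 6 pigment epithelium and ciliary markers above the median, Tyr, Tyrp1 and Dct were also highest in wildtype 1 by their leading probe sets. Pmel, Ttr and Rgr were not. The part of lens or pigmented tissue in the Sfrp1 values was not tested. Sfrp4 had 132, 207 and 187 in wildtype and 150, 222 and 154 in knockout. The other inhibitors, Dkk1, Dkk2, Dkk4, Sfrp5, Frzb and Wif1, stayed under the median in every wildtype array, with signals from 1.36 to 82.2. Dkk1 and Dkk2, which bind Lrp6 directly, were thus not distinguishable from the reference genes.

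The cytoplasmic transducers were the group most often above the median. Ctnnb1, which encodes beta-catenin, had 12057, 11493 and 12619 in wildtype (mean 12056 ± 563, SD, n = 3) and 12571, 4914 and 10513 in knockout. It was at the 99.1 to 99.4 percentile of the wildtype arrays. Beta-catenin is also a structural part of cadherin junctions, so its transcript is not a measure of Wnt signalling alone. Apc, the scaffold of the destruction complex, had 1363, 1262 and 946 in wildtype (mean 1191 ± 218, SD, n = 3) and 1248, 181 and 955 in knockout. Gsk3b, the kinase that marks beta-catenin for breakdown, had 863, 876 and 440 in wildtype (mean 726 ± 248, SD, n = 3) and 777, 2035 and 675 in knockout. In both genes the arrays of pair 3 were lower than wildtype 1, wildtype 2 and knockout 1.

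Axin1, the scaffold whose amount limits the destruction complex, was steady at 485, 446 and 428 in wildtype (mean 453 ± 28.8, SD, n = 3) and had 449, 604 and 490 in knockout. Dvl1, a Dishevelled protein that links Frizzled to Axin, had 1435, 1885 and 1428 in wildtype (mean 1583 ± 262, SD, n = 3) and 1692, 10714 and 1497 in knockout. Axin2, a negative regulator that beta-catenin itself induces, was near the median with 181, 177 and 260 in wildtype and 115, 129 and 255 in knockout. Its 2 high values were the littermates of pair 3. Dvl2 was also near the median, with 254, 178 and 170 in wildtype and 151, 279 and 202 in knockout. The second Dvl2 probe set was under it, with 52.5, 93.6 and 31.2 in wildtype. Dvl3 was the transducer under the median everywhere in wildtype, at 6.56, 3.91 and 10.2, and its single probe set was as dim as those of the reference genes.

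Of the nuclear factors, Tcf7l2 was the steadiest by leading probe sets, with 132, 146 and 142 in wildtype (mean 140 ± 7.38, SD, n = 3) and 136, 119 and 129 in knockout. These values were under the array median each time. Of the other Tcf7l2 probe sets, 1429428_at had 123, 134 and 150 in wildtype and 1425229_a_at had 57.3, 41.8 and 65.1. The last, 1426639_a_at, varied, with 4.30, 5.03 and 72.3 in wildtype. Tcf7l1, known mostly as a repressor of Wnt targets, had 75.1, 103 and 444 in wildtype and 85.1, 191 and 372 in knockout. The 2 littermates of pair 3 were high for this probe set and low for the second one, which had 162, 150 and 96.0 in wildtype and 196, 684 and 63.3 in knockout. Lef1, an activator of Wnt targets, had 24.7, 2.42 and 21.8 in wildtype and 31.8, 33.1 and 35.6 in knockout, within the range of the reference genes.

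Several genes were read by more than 1 probe set, and these did not always place a gene on the same side of the median. Of 22 such genes, all probe sets were above it in the 3 wildtype arrays for 5 (Ctnnb1, Dkk3, Dvl1, Fzd2 and Ryk), some for 3 (Apc, Axin1 and Lrp6) and none for 14. The second Lrp6 probe set, for example, had 164, 157 and 169 in wildtype, close to the median, beside 502, 472 and 575 for the leading one. The third Apc probe set had 120, 199 and 77.7 in wildtype. A call for a gene with 1 probe set, which was the case for 32 of the 54, had no such check.

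The second question was whether loss of Nhlh2 altered the pathway. No Wnt probe set passed the test between knockout and wildtype. The comparison took the 3 wildtype arrays and knockout 1 and 3, log2(scaled signal + 1), and limma with Benjamini-Hochberg adjustment over the 11313 probe sets in the brighter part of the array. None of the 11313 passed an adjusted p of 0.05 (0% called), and 82 (0.725%) had an unadjusted p under 0.05. The test held 23 probe sets of 15 Wnt genes, while 39 genes were too dim to enter it, every ligand and nuclear factor among them. Of the 23, none had an adjusted or unadjusted p under 0.05. The estimates were positive for 9 and negative for 14, with a median log2 change of -0.05 against 0.00 over all probe sets tested, and ran from -0.56 to 0.33. The lowest adjusted p of any probe set was 0.9995. With all 6 arrays none passed either, 12 of 11313 had an unadjusted p under 0.05, and the median log2 change was -0.34 for 26 Wnt probe sets and -0.16 for all.

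**Figure D2:**
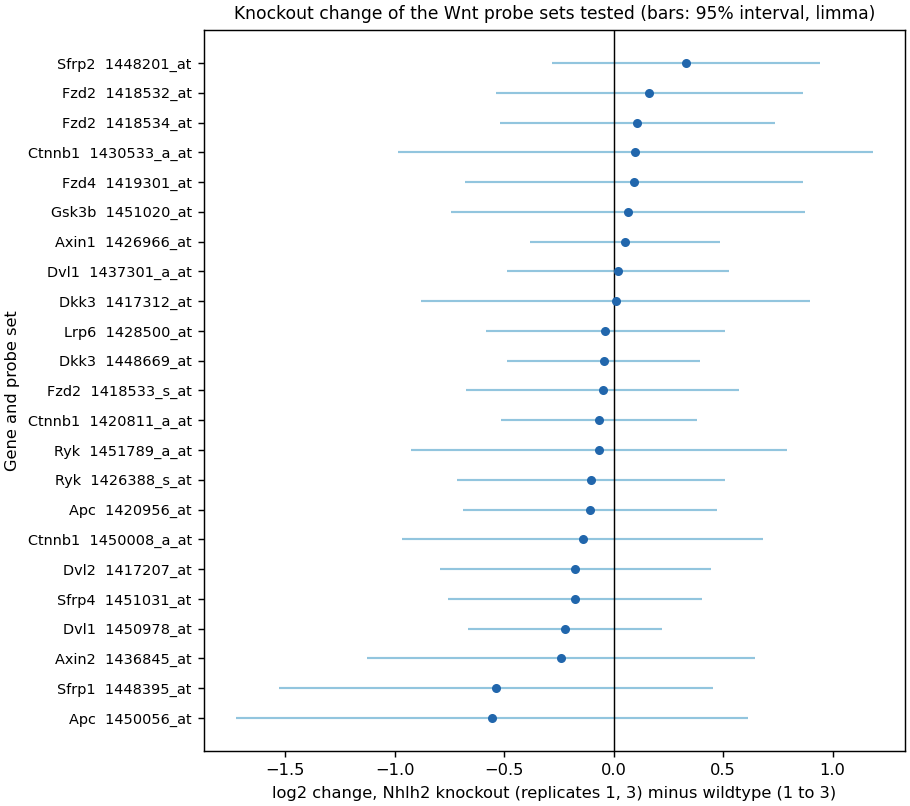
Log2 change between Nhlh2 knockout (replicates 1 and 3) and wildtype (replicates 1 to 3) for the 23 Wnt probe sets tested, with limma's estimate as a point and its 95% confidence interval as a bar. Every interval crosses 0, and the estimates run from -0.56 for an Apc probe set to 0.33 for Sfrp2.

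The 3 probe sets with the smallest p in each direction were those of Sfrp2 and Fzd2 (2 probe sets) among positive estimates, and of Sfrp1, Dvl1 and Apc among negative ones. Each had an adjusted p of 0.9995 in limma's fit. Sfrp2 had a log2 change of 0.33 (SE 0.25, 95% interval -0.28 to 0.94), which came from knockout 3 and was -0.039 without it. The 2 Fzd2 probe sets, 1418532_at and 1418534_at, had 0.16 and 0.11, and changed sign when single arrays were left out. The first of them had 343, 275 and 215 in wildtype and 383, 13.6 and 243 in knockout. Sfrp1 had a log2 change of -0.54 (SE 0.41, 95% interval -1.53 to 0.46), and with each array left out in turn it ran from -0.94 without knockout 3 to -0.13 without knockout 1. It was -0.25 without wildtype 1, the array with lens transcripts, and -0.87 without wildtype 2. The second Apc probe set had 481, 468 and 195 in wildtype and 344, 64.3 and 167 in knockout, a log2 change of -0.56 (SE 0.49). That estimate ran from -1.07 without knockout 1 and -0.98 without wildtype 3 to -0.037 without knockout 3. Wildtype 3 lay between knockout 1 and knockout 3 there, so the groups overlapped. The second Dvl1 probe set had 707, 779 and 809 in wildtype and 695, 376 and 616 in knockout, a log2 change of -0.22 (SE 0.18). It was the one Wnt probe set among the 23 with knockout 1 and 3 both below all 3 wildtype arrays, against 5.46% of all probe sets tested. None had both above, against 5.37% of all. The leading Dvl1 probe set overlapped between the groups.

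The intervals set the size of change that these arrays could have missed. For the leading Ctnnb1 probe set the log2 change was -0.07 with a 95% interval of -0.52 to 0.38, and for Axin1 it was 0.05 with an interval of -0.38 to 0.49. The interval was wider where the wildtype arrays disagreed, as for Apc 1450056_at (-1.72 to 0.61) and Ctnnb1 1430533_a_at (-0.98 to 1.18). Over the 23 Wnt probe sets the coefficient of variation of the scaled signal among the 3 wildtype arrays had a median of 22.6%, and ran from 3.87% for Sfrp2 to 42.4% for Apc 1450056_at. Over all probe sets tested its median was 16.3%.

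Within littermate pairs the differences ran in both directions. In pair 1 the knockout was higher than its wildtype littermate for 9 of the 23 Wnt probe sets, and in pair 3 for 13. In both pairs the knockout was higher for 4 and lower for 5, so that 39.1% kept a direction, against 48.0% of all probe sets tested. The median differences of the 23 were -0.10 in pair 1 and 0.02 in pair 3. Gsk3b differed by -0.15 in pair 1 and 0.62 in pair 3. Sfrp2 differed by -0.10 and 0.72, and Dvl2 by -0.75 and 0.25. The leading Sfrp1 probe set was lower in the knockout of both, by -1.52 and -0.21, with wildtype 1 the array with lens transcripts. The other Sfrp1 probe sets, too dim to be tested, were also lower in the knockout of pair 1. In pair 3 they were higher in the knockout, by 0.38, 0.52 and 2.43. In pair 2, with knockout 2, the differences ran from -7.62 for Ctnnb1 1430533_a_at to 2.51 for the leading Dvl1 probe set. For the same gene that array gave unequal answers, since Ctnnb1 1420811_a_at was lower by -1.23 and Dvl1 1450978_at by -1.05. The littermate pair as a replicate block in limma's fit left 0 probe sets called, with 411 at an unadjusted p under 0.05. Of these 1 was a Wnt probe set: the leading Sfrp1 probe set had -0.87 (SE 0.29, adjusted p = 0.9989). That estimate rests on pairs 1 and 3 alone.

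**Figure D3:**
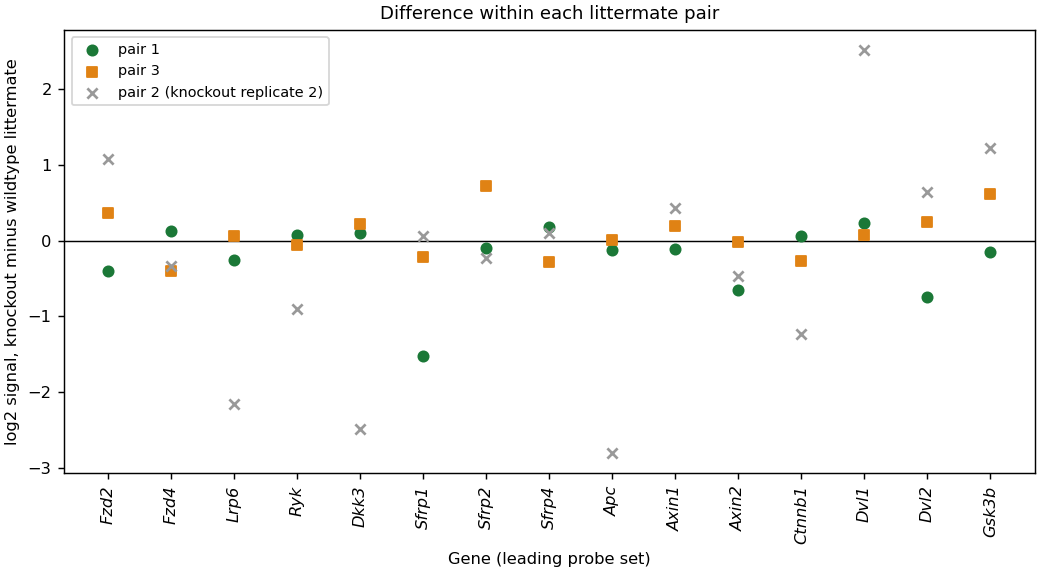
Difference in log2 signal between the knockout and its wildtype littermate (vertical axis) for the leading probe set of the 15 Wnt genes tested (horizontal axis), with circles for pair 1, squares for pair 3 and crosses for pair 2, which holds knockout 2. Pairs 1 and 3 lie on both sides of 0, with the widest difference at -1.52 for Sfrp1 in pair 1, and pair 2 ranges from -2.79 for Apc to 2.51 for Dvl1.

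The Wnt genes were also compared between litters. Wildtype 3 and knockout 3, the littermates of pair 3, stood apart from wildtype 1, wildtype 2 and knockout 1 for 7 of the 23 Wnt probe sets, in a comparison chosen after the values had been seen. It used limma with genotype and pair 3 as terms. Of 11313 probe sets 2626 were called (23.2%), 1073 higher and 1553 lower in pair 3, beside 7 of 23 (30.4%) for the Wnt genes. Without wildtype 2 there were 1418 calls and without knockout 1 there were 1013, of which 7 and 5 were Wnt probe sets. Without the filter on dim probe sets there were 0 calls, and 0 among 85 Wnt probe sets. Pair 3 is 1 litter of 2 mice, so that the litter and any step of handling that its 2 arrays shared cannot be told apart.

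Axin2 was the one Wnt gene called higher in pair 3, by its leading probe set. Its log2 difference was 0.79 (SE 0.18, adjusted p = 0.0208), with 260 and 255 in the littermates of pair 3 against 181, 177 and 115 in wildtype 1, wildtype 2 and knockout 1. Without knockout 1, the lowest of these, it was 0.53 (adjusted p = 0.109). The second Axin2 probe set, too dim to be tested, had 4.84 and 3.53 in pair 3 against 3.17, 4.10 and 7.76. The 6 probe sets that were called lower belonged to Apc, Ctnnb1 (2 probe sets), Dkk3, Ryk and Fzd2. Apc 1450056_at had 195 and 167 in pair 3 against 481, 468 and 344, a log2 difference of -1.18 (SE 0.14, adjusted p = 0.00298). Ctnnb1 1430533_a_at had 886 and 1255 in pair 3 against 2066, 2110 and 2251, a log2 difference of -1.07 (SE 0.15, adjusted p = 0.00537). Dkk3 1417312_at, with 2310 and 2696 against 4326, 4320 and 4625, had -0.85 (SE 0.14, adjusted p = 0.00779). In these 4 called probe sets, though not in every probe set of their genes, no array of pair 3 overlapped the other 3. That was so for 3 of the 23 Wnt probe sets on the high side (Fzd4, Lrp6 and Axin2), against 24.5% of all probe sets, and for 8 on the low side, against 30.5% of all.

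For Ctnnb1, Dkk3, Ryk and Fzd2 the difference was called in some probe sets of the gene and not in others. The leading Ctnnb1 probe set had a log2 difference of -0.05 (adjusted p = 0.818), while Ctnnb1 1450008_a_at had -0.75 (adjusted p = 0.0149). The second Dkk3 probe set had -0.06 (adjusted p = 0.8001). Ryk 1451789_a_at, with 417 and 423 in pair 3 against 796, 619 and 749, had -0.78 (adjusted p = 0.0170), whereas Ryk 1426388_s_at had 0.29 (adjusted p = 0.316). Fzd2 1418532_at had -0.57 (adjusted p = 0.0400) and Fzd2 1418534_at 0.34 (adjusted p = 0.246). All 3 Apc probe sets were lower in both arrays of pair 3: Apc 1420956_at, with 946 and 955 against 1363, 1262 and 1248, had -0.43 (adjusted p = 0.0612), and Apc 1420957_at, too dim to be tested, had 77.7 and 107 against 120, 199 and 183. Without knockout 1, Ctnnb1 1450008_a_at and Ryk 1451789_a_at were no longer called (adjusted p = 0.0845 for each). Gsk3b, read by a single probe set, had -0.65 (adjusted p = 0.0526). Cell type markers also differed in pair 3, by their leading probe sets and beside the 23.2% called over all. Of 6 photoreceptor precursor markers, Neurod1 (0.80), Rcvrn (1.03) and Nrl (0.66) were called higher. Second probe sets of this list went the other way, with Neurod1 1426413_at at 6384 and 5520 in pair 3 against 7654, 9551 and 9791, and Crx 1449185_at at 3095 and 2175 against 3296, 4159 and 3678. Of 10 progenitor and Müller markers, Ccnd1 was called higher (0.82) and Lhx2 lower (-0.79), and of 6 pigment epithelium and ciliary markers, Ttr was called higher (0.80) and Tyr lower (-0.63). The part of cell composition in the Wnt values was not tested.

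**Figure D4:**
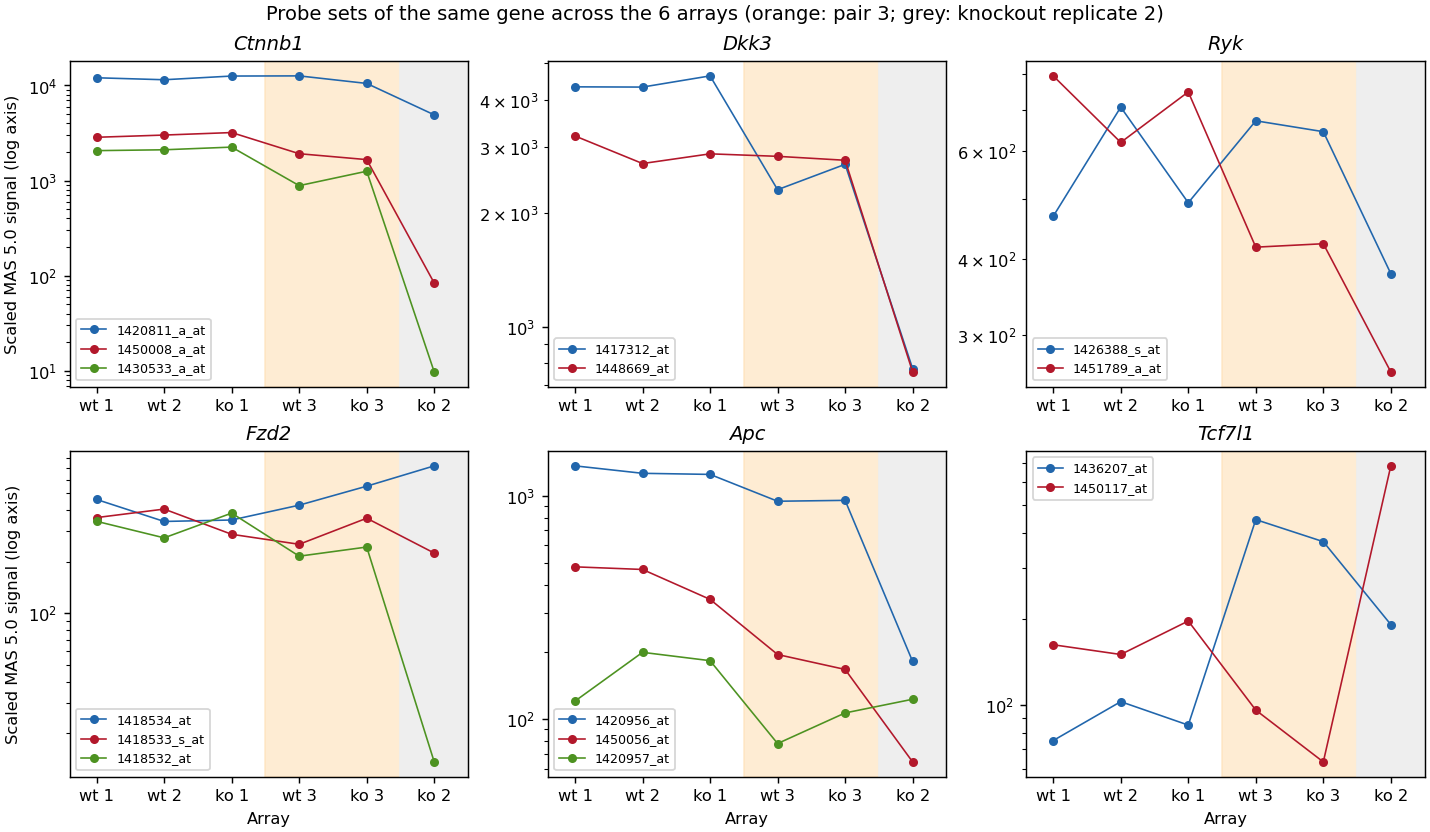
Scaled MAS 5.0 signal (vertical axes, log scale, a separate range in each panel) of the probe sets of Ctnnb1, Dkk3, Ryk, Fzd2, Apc and Tcf7l1 in the 6 arrays, with the littermates of pair 3 shaded orange and knockout 2 shaded grey. In pair 3 some probe sets of a gene step down while another stays level, as for Ctnnb1 and Dkk3, or move apart, as for Tcf7l1.

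Other genes of the pathway, taken from lists by function, gave no call between knockout and wildtype either, and none of their tested genes had an unadjusted p under 0.05 in limma's fit. A list of Wnt secretion and sensitivity held genes for secretion, for R-spondin signals and their receptors, and other modulators such as Sostdc1. Of its 20 genes, 15 were measured, 4 were above the median in all wildtype arrays and 7 were tested. Of the 7, 3 had a positive and 4 a negative estimate (median log2 change -0.07). Porcn, the enzyme that attaches the lipid to Wnt ligands, was above the median at 286, 297 and 426 in wildtype and had 326, 397 and 305 in knockout. Wls, which carries the ligands to the cell surface, was under it at 128, 104 and 75.5 in wildtype. Rspo2, which enhances Wnt signals at the receptor, had 398, 539 and 359 in wildtype and 460, 29.2 and 320 in knockout. Lgr5, its receptor and also a Wnt target, had 160, 259 and 331 in wildtype and 251, 179 and 392 in knockout, with a log2 change of 0.39 (SE 0.36, adjusted p = 0.9995).

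The next list held destruction complex partners, kinases and other regulators, Ctnnbip1 and Cxxc5 among the latter. Its genes were nearly all expressed, with 14 of 15 measured genes above the median in all wildtype arrays. Of these, 14 were tested, 4 with a positive and 10 with a negative estimate (median log2 change -0.06). Of 15 nuclear cofactors of beta-catenin and Tcf factors, 12 were above the median and 12 tested, 2 positive and 10 negative (median -0.10). The largest of these estimates was that of Tle4, a Groucho family corepressor, at -0.45 (SE 0.30, adjusted p = 0.9995). Of the planar polarity and calcium genes, 11 of 16 were above the median and 12 tested, 7 positive and 5 negative (median 0.02). Prickle1, a planar polarity protein, had -0.42 (SE 0.21, adjusted p = 0.9995). In pair 3 against the other arrays, 23.2% of all probe sets were called. Beside this, leading probe sets were called for 4 of 14 destruction complex partners, kinases and regulators (Csnk2a1, Ctnnbip1 and Cxxc5 higher, Csnk1a1 lower). They were called for 4 of 12 nuclear cofactors (Tle3, Smarca4, Ctbp2 and Bcl9, all higher). In the secretion and sensitivity list 1 of 7 was called (Sostdc1, higher), and no planar polarity gene was. The second Sostdc1 probe set had 83.3 and 43.0 in pair 3 against 73.6, 75.9 and 80.8. Further probe sets went the other way for Csnk1a1, with Csnk1a1 1428537_at at 3477 and 3264 in pair 3 against 2943, 3047 and 2803. The same held for Ctbp2, with Ctbp2 1422887_a_at at 1805 and 1916 against 2418, 2614 and 2347.

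The textbook targets of beta-catenin and Tcf factors were mixed. Of 23 measured, 9 were above the median in all wildtype arrays and 10 in none, and of 10 tested 6 had a positive and 4 a negative estimate between knockout and wildtype (median log2 change 0.06). Ccnd1, the cyclin of dividing progenitors, had 8159, 5646 and 11327 in wildtype and 7458, 48898 and 14218 in knockout, with a log2 change of 0.36 (SE 0.39, adjusted p = 0.9995). Birc5, an inhibitor of apoptosis that is also part of the mitotic machinery, had 1197, 893 and 1094 in wildtype and 1246, 744 and 1745 in knockout, with a log2 change of 0.48 (SE 0.24, adjusted p = 0.9995). For Birc5, knockout 1 and knockout 3 were both above all 3 wildtype arrays, as for 5.37% of all probe sets tested. Rnf43 and Notum, feedback inhibitors that beta-catenin induces, were under the median in at least 2 wildtype arrays. Rnf43 was at 5.21, 4.85 and 3.49 in wildtype and Notum at 197, 95.8 and 63.4. Nkd1, another target on this list, was above the median in all 3 wildtype arrays, at 237, 216 and 167. In pair 3, 2 of the 10 targets were called by their leading probe sets, beside 23.2% of all: Ccnd1 higher (0.82, adjusted p = 0.0241) and Ccnd2 lower (-0.97, adjusted p = 0.0241). The other Ccnd1 probe sets overlapped, with 8013 and 7065 in pair 3 against 8617, 7444 and 8575 for Ccnd1 1417420_at, and 3285 and 5699 against 4932, 4144 and 5357 for Ccnd1 1417419_at.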

How the data were processed

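RNA from the retinas of 6 mice was hybridised to Affymetrix mouse GeneChip arrays, and the authors computed MAS 5.0 signals, deposited as intensity values on a linear scale for 22690 probe sets per array. No detection calls were used here. The arrays number 3 per group, which limits the precision. Probe sets were named from the platform annotation: 64 controls were left out, and of the others 20380 had 1 symbol, 691 several and 1555 none. Each array was multiplied so that its 2% trimmed mean was 500 and log2(signal + 1) was taken. The 50% of probe sets with the higher mean over 5 arrays entered limma 3.58.1 (R 4.3.3) with Benjamini-Hochberg adjustment, and knockout 2 was left out. A gene was represented by its probe set with the highest mean log2 signal. The script was tested on simulated data.

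Values in every array are given for genes above the median in all wildtype arrays and for the 3 probe sets with the smallest p in each direction, and others were named after their values were seen. Members and lists were chosen with earlier results of these data known. Littermates share a replicate number by the series' own design, so the pairing is by litter, although deviations of same-numbered arrays from their group means correlated at 0.265, -0.153 and 0.139. Alternatives covered the arrays used, littermate block, scaling, added constant, filter, variance prior and each array left out. p-values measure the spread between single mice, and those of the pair 3 comparison do not measure the spread between litters. Tables and figures were made with pandas 2.3.3, numpy 2.4.6 and matplotlib 3.10.9.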

Additional observations from a re-analysis of the deposited data

How the results depend on the processing

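The count of Wnt genes above the threshold in wildtype depended on the threshold, with 29 of 54 above the 25th percentile of all 3 arrays and 4 above the 75th, and was 10 to 15 when each wildtype array was left out in turn. The count of probe sets called between knockout and wildtype was 0, for all probe sets and for Wnt probe sets, under each of the 16 alternatives run, and the adjusted p of the 6 named probe sets ran from 0.753 to 1. Of their 96 estimates under alternatives, 10 changed sign. Fzd2 1418532_at was -1.30 with all 6 arrays, with and without the littermate pair as a replicate block, -0.11 on signals as deposited, and -0.17 to 0.49 with each array left out in turn (negative without wildtype 3 or knockout 1). Fzd2 1418534_at was -0.015 with the littermate pair as a replicate block on 5 arrays, -0.16 on signals as deposited, and -0.22 to 0.43 with each array left out (negative without wildtype 2 or knockout 3). Sfrp2 was -0.039 to 0.70 with each array left out (negative without knockout 3). The replicate block changed no call. Signals as deposited moved the median of all probe sets to -0.27 and of the Wnt probe sets to -0.32. For pair 3 against the others, 0 probe sets were called with no filter, 0 of them Wnt probe sets, and with an array left out the calls ran from 1013 to 2912, with 5 to 10 Wnt probe sets. Where knockout 1 or knockout 3 was left out, the lone knockout was assumed to vary like the wildtype. The causes were not tested. Dim probe sets limit what can be said of the ligands, none of which was tested.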
